A study of Homo sapiens with 6 samples.

Results

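The long non-coding RNAs of A375 melanoma cells are described here across 6 Affymetrix expression arrays. Members were the genes whose symbol in the platform annotation begins with LINC or SNHG followed by a digit or ends in -AS1, together with UCA1, H19, MEG3, GAS5, NEAT1 and MALAT1. Probe sets with exactly 1 symbol were used, and the brightest probe set by the mean of the 6 arrays stood for each gene. This gave 261 members of 18132 genes: 151 LINC genes, 98 antisense genes, 10 SNHG genes, UCA1 and MALAT1. H19, MEG3, GAS5 and NEAT1 were not analysed here, because the rule found no probe set for them. A further 27 symbols that fit the rule were read only by probe sets listed with several symbols and were left out. The rule uses gene symbols and brightness and no difference between the groups, though it was written with earlier results of these data known.

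A375 is an established human melanoma line. The control group held 3 arrays of A375 cells and the knockdown group 3 arrays of A375 cells in which MAP4K5, a kinase that acts upstream of stress-activated kinase signalling, was stably knocked down by shRNA. All cells were cultured in DMEM with fetal bovine serum and antibiotics and received no treatment. The labels do not say whether the control cells carried a vector, or how many clones the knockdown line holds. The samples are labelled as biological replicates, but nothing describes how the cultures were separated; the p-values therefore reflect array-to-array spread alone, part of which may be technical.

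Long non-coding RNAs are transcripts that act without being translated, and many are made at low levels and in few tissues. LINC symbols mark transcripts that lie between protein-coding genes, and -AS1 marks a transcript read from the strand opposite a named gene. SNHG genes host small nucleolar RNAs (snoRNAs) in their introns. The snoRNAs guide chemical modification of ribosomal and spliceosomal RNA, while the spliced host transcript is often short-lived and removed by nonsense-mediated decay. UCA1 was first described in bladder cancer and is raised in many carcinomas. MALAT1 is an abundant nuclear transcript found in splicing speckles.

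The knockdown and the arrays were checked before the members were described. MAP4K5 measured 77.7, 78.1 and 76.3 in the control arrays and 19.7, 18.8 and 20.3 in the knockdown arrays, a level of 25.3% of control. Folds and percentages of control, here and below, come from the difference of mean log2 values, so they can differ from the ratio of the mean intensities. Control replicate 2 stood apart from the other controls: its correlation over all genes was 0.992 with controls 1 and 3 and 0.993 to 0.994 with the knockdown arrays, while controls 1 and 3 correlated at 0.997 with each other. Genes are not independent replicates, so these correlations describe the arrays only. Of 12 measured melanoma markers, 8 lay above the median gene. AXL was the brightest, with 756 as its mean. The pigment genes MLANA, TYR and PMEL, at means of 2.81, 3.57 and 2.91, lay below it. Of 6 markers of other cell types, KRT8 alone lay above the median gene, with a mean of 21.6. By limma 0 of the 6 were called, beside 7.83% of all genes. At an unadjusted p under 0.05, 1 was higher, KRT8, beside 12.4% of all genes. It measured 13.9, 26.2 and 15.4 in control and 29.2, 26.2 and 23.5 in knockdown cells. Without control replicate 2 it was called higher (0.84, limma adjusted p = 0.00151), in a fit that called 20.6% of all genes. Of the 12 melanoma markers 2 rose and 2 fell, beside 3.7% and 4.13% of all genes, and 13.5% called among genes above the median. SOX9 (1.65) and MITF (0.99) rose and S100B (-1.31) and SOX10 (-0.54) fell on the log2 scale. The part of these markers in the values of the long non-coding RNAs was not tested.

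Few of these RNAs differed between the groups. UCA1, SNHG9 and LINC01098 were higher in knockdown cells, LINC02910 and ZNF436-AS1 were lower, and the other 256 members were not called by limma with Benjamini-Hochberg adjustment over all 18132 genes at a threshold of 0.05. Those 5 are 1.92% of the members, against 7.83% of all genes called (3.7% higher and 4.13% lower). The median log2 fold change, knockdown minus control, was 0.0048 over the members and 0.011 over all genes. The lower and upper quartiles of the members were -0.08 and 0.09. A log2 fold change of at least 1 in size was seen in 2 members, UCA1 and LINC02910, and in 1.3% of all genes.

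**Figure D1:**
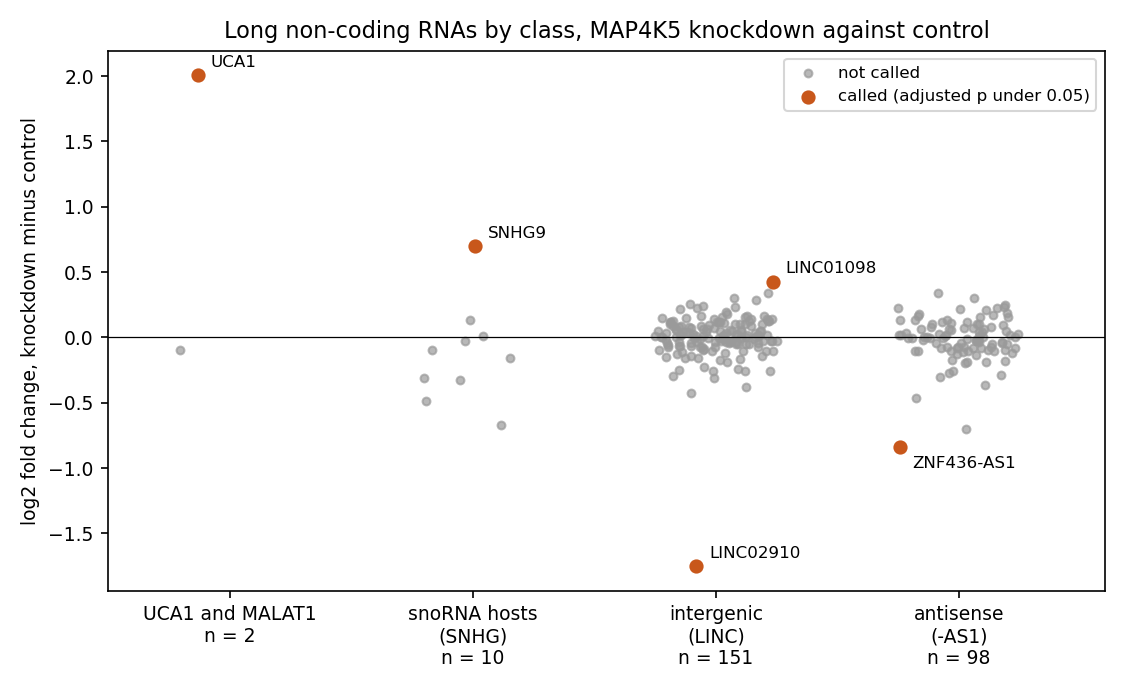
Log2 fold change (knockdown minus control, vertical axis) of each member, by class; each point is 1 gene, and the horizontal spread within a class carries no value. UCA1 at 2.01 and LINC02910 at -1.75 stand apart from the other members, and the 5 called members are orange.

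Most members were dim on these arrays. Only 30 of 261 (11.5%) had a mean above that of the median gene, 8.68 in intensity. These were 8 of the 10 SNHG genes, 9 of 151 LINC genes, 11 of 98 antisense genes, UCA1 and MALAT1. Intensities of different probe sets are not set against each other as amounts of RNA; brightness says how far a signal lies above the floor of the array, where RMA compresses differences. Among the 30 brighter members, 4 (13.3%) were called, beside 13.5% of all genes above the median. Among the 231 dimmer members, 1 (0.433%) was called, beside 2.16% of all genes at or below it. In 28 members (10.7%) the 3 control values and the 3 knockdown values did not overlap, against 28.1% of all genes.

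UCA1 rose the most of all members. It measured 54.6, 90.0 and 47.6 in the control arrays and 243, 246 and 253 in the knockdown arrays. The groups were far apart, the knockdown arrays lay close together, and control 2 was the highest of the controls. The control mean was 64.1 ± 22.7 and the knockdown mean 248 ± 5.25 (SD, n = 3 arrays per group), and the mean log2 values differed 4.02-fold (log2 2.01 ± 0.21 SE, limma adjusted p = 0.00167). Against control 2 alone the log2 difference was 1.46, and against controls 1 and 3 it was 2.18 and 2.38. With any 1 of the 6 arrays left out the call held, with log2 fold changes of 1.82 to 2.28. UCA1 was read by 1 probe set, so no other probe set bears on this value.

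The genes next to UCA1 were dim and were not called. The 3 nearest measured genes on either side, by their order in RefSeq (GRCh38.p14), were CYP4F24P, OR10H5, OR10H1, CYP4F2, CYP4F11 and OR10H4. These are cytochrome P450 family 4 and olfactory receptor genes. Their mean intensities lay between 2.16 and 4.21, below the median gene, and their log2 fold changes between -0.29 and 0.08, with 0 of 6 called by limma (1 lower at an unadjusted p under 0.05). Of 19 transcription factors and cofactors listed as candidate regulators of UCA1, 0 were called by limma (2 higher and 4 lower at an unadjusted p under 0.05), and their median log2 fold change was -0.02 against 0.011 over all genes. Of all genes, 7.83% were called, and 12.4% were higher and 11.1% lower at an unadjusted p under 0.05. Of the 19, 16 lay above the median gene, where those shares were 13.5%, 19.8% and 17.6%. CEBPB, a basic leucine zipper factor, had the smallest p. It measured 268, 131 and 285 in control and 108, 106 and 106 in knockdown cells (log2 -1.02 ± 0.26, limma adjusted p = 0.0502). The hypoxia factor HIF1A measured 647, 668 and 620 in control and 526, 563 and 560 in knockdown cells (-0.23 ± 0.08, adjusted p = 0.123), and was named here after its values were seen. Without control replicate 2, 0 of the 19 rose and 3 fell, beside 10.5% and 10.1% of all genes.

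**Figure D2:**
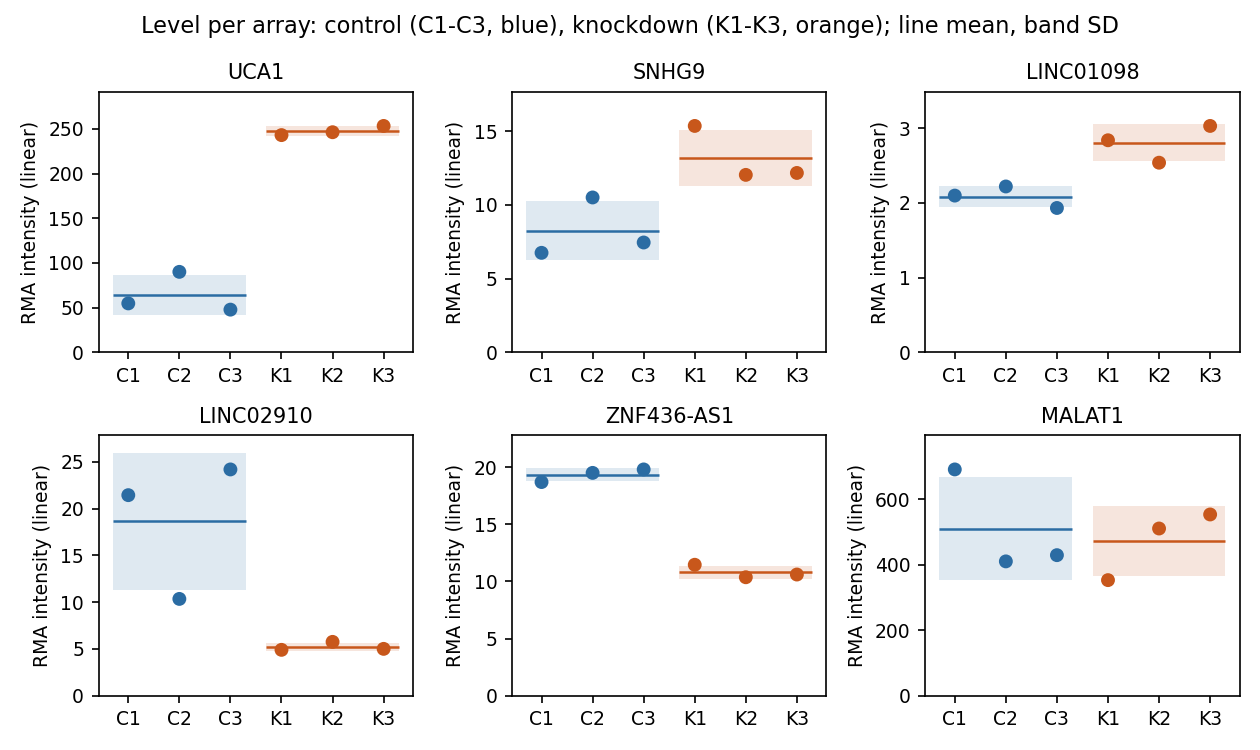
RMA intensity on a linear scale from 0 (vertical axis) of the 5 called members and MALAT1 in each array: C1 to C3 are the control replicates and K1 to K3 the knockdown replicates; lines are group means and bands 1 SD. The knockdown values of UCA1, 243 to 253, lie above all 3 controls, while the groups of MALAT1 overlap.

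MALAT1, the other named RNA measured, did not pass the test. Its brightest probe set measured 690, 410 and 429 in control and 353, 510 and 553 in knockdown cells. The groups overlapped, with control 1 the highest array and knockdown 1 the lowest. The log2 fold change was -0.10 ± 0.23 (SE, limma adjusted p = 0.856) and changed sign without control replicate 1 (0.14) or knockdown replicate 1 (0.10). The other probe sets of MALAT1 gave -0.29 ± 0.12 and -0.37 ± 0.12 in the test per probe set (limma adjusted p = 0.234 and 0.127), so all 3 were on the lower side and none was called, beside 4.48% of all 44988 probe sets.

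Protein partners and neighbours of the named RNAs that were not measured were looked at instead. IGF2, the listed neighbour of H19, was not measured either. NEAT1 is the scaffold of paraspeckles, nuclear bodies that hold RNA-binding proteins. Of 17 measured paraspeckle protein genes, 0 were called by limma (4 higher and 0 lower at an unadjusted p under 0.05, beside 12.4% and 11.1% of all genes), with a median log2 fold change of 0.13 against 0.011 over all genes. The share of all genes called was 7.83%. All 17 lay above the median gene, where 13.5% of genes were called. At an unadjusted p under 0.05, 19.8% of such genes were higher and 17.6% lower. RBM14, a coactivator protein of these bodies, had the smallest p: it measured 79.0, 138 and 87.4 in control and 177, 158 and 155 in knockdown cells (0.73 ± 0.19, limma adjusted p = 0.054). Control 2 lay nearer the knockdown arrays than the other controls did, and without control 2, 5 of the 17 rose, beside 10.5% of all genes. DLK1, RTL1 and DIO3, the protein-coding genes of the imprinted domain that holds MEG3, all lay below 5 in intensity on every array, and 0 of the 3 were called by limma (0 at an unadjusted p under 0.05), with log2 fold changes of -0.09, 0.03 and -0.18.

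Among the SNHG, LINC and antisense classes the SNHG genes were the brightest, and 1 of 10 was called, against 7.83% of all genes. Of the 10, 8 lay above the median gene, where 13.5% of all genes were called. The median log2 fold change of the class was -0.13, against 0.011 over all genes, and 7 of the 10 were on the lower side. SNHG9, which lies beside the ribosomal protein gene RPS2, was the only SNHG gene called, and it rose. It measured 6.75, 10.5 and 7.45 in control and 15.4, 12.04 and 12.2 in knockdown cells. The groups did not overlap, though control 2 came close to the lowest knockdown array. The fold change was 1.62 (log2 0.70 ± 0.17 SE, limma adjusted p = 0.0457). The call held without control 2 (0.89) and was lost without any other single array, with log2 fold changes of 0.57 to 0.76 there. SNHG9 was read only by a probe set ending in _s_at, a kind that can bind several transcripts.

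The snoRNA inside SNHG9, SNORA78, measured 4.05, 4.28 and 4.64 in control and 6.12, 5.13 and 4.68 in knockdown cells. All 3 knockdown values were above the controls, the nearest pair by a narrow margin, and the test was not passed (0.29 ± 0.11, limma adjusted p = 0.173). Its mean of 4.77 lay below the median gene. The measured snoRNAs of other hosts, SNORA13, SNORA60, SNORA71A, SNORA71C, SNORA71D and SNORD12B, stood between -0.05 and 0.16. They also lay below the median gene and were not called. RPS2, which encodes a protein of the small ribosomal subunit, stood at -0.01 ± 0.07, and NDUFB10, a complex I subunit gene, at 0.44 ± 0.12 (adjusted p = 0.0544). TBL3, SNORA78, RNF151 and RPL3L, the remaining nearest measured genes, were not called.

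A group of bright host transcripts followed the split among the control arrays. SNHG32 measured 753, 349 and 887 in control and 378, 391 and 392 in knockdown cells. SNHG7 measured 396, 231 and 431 in control and 245, 246 and 240 in knockdown cells. In both, controls 1 and 3 were high and control 2 lay below all 3 knockdown arrays, so the groups overlapped. SNHG7 rests here on a probe set ending in _x_at. Its other, dimmer probe set measured 5.40, 5.41 and 5.32 in control and 7.07, 6.32 and 5.65 in knockdown cells, higher in every knockdown array (0.23 ± 0.10, not called, limma adjusted p = 0.247 per probe set), so the direction turns with the probe set. SNHG8 measured 681, 557 and 773 in control and 510, 554 and 524 in knockdown cells. SNHG12 measured 204, 164 and 220 in control and 160, 152 and 158 in knockdown cells. In these the groups did not overlap, but control 2 lay close above the highest knockdown array.

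EPB41L4A-AS1, an antisense member that hosts the snoRNA SNORA13 and was read only by a probe set ending in _s_at, had the same order: 376, 161 and 424 in control and 186, 176 and 184 in knockdown cells. Their log2 fold changes were -0.67 ± 0.30 (SNHG32), -0.48 ± 0.21 (SNHG7), -0.33 ± 0.12 (SNHG8), -0.31 ± 0.12 (SNHG12) and -0.70 ± 0.31 (EPB41L4A-AS1), with limma adjusted p of 0.144 to 0.227. Without control replicate 2 all 5 fell, by 1.08, 0.76, 0.46, 0.44 and 1.14 on the log2 scale (limma adjusted p = 0.000137 to 0.00965), in a fit that called 20.6% of all genes; the value of SNHG7 is again that of its _x_at probe set. Against control 2 alone they stood at 0.15, 0.08, -0.07, -0.07 and 0.18. The 5 hosts were put side by side after these values were seen, and control 2 is the array that sets the pattern. The p-values without control 2 are therefore no test of it. SNHG29, which had the order of SNHG32, is not among the 5 and was not called in that fit (-0.20, limma adjusted p = 0.127). DDIT3, which encodes the stress-induced factor CHOP, measured 89.4, 8.63 and 102 in control and 8.94, 8.01 and 9.51 in knockdown cells, and so split the controls the same way. DDIT3 was picked with its values known, and its part in the host transcripts was not tested.

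**Figure D3:**
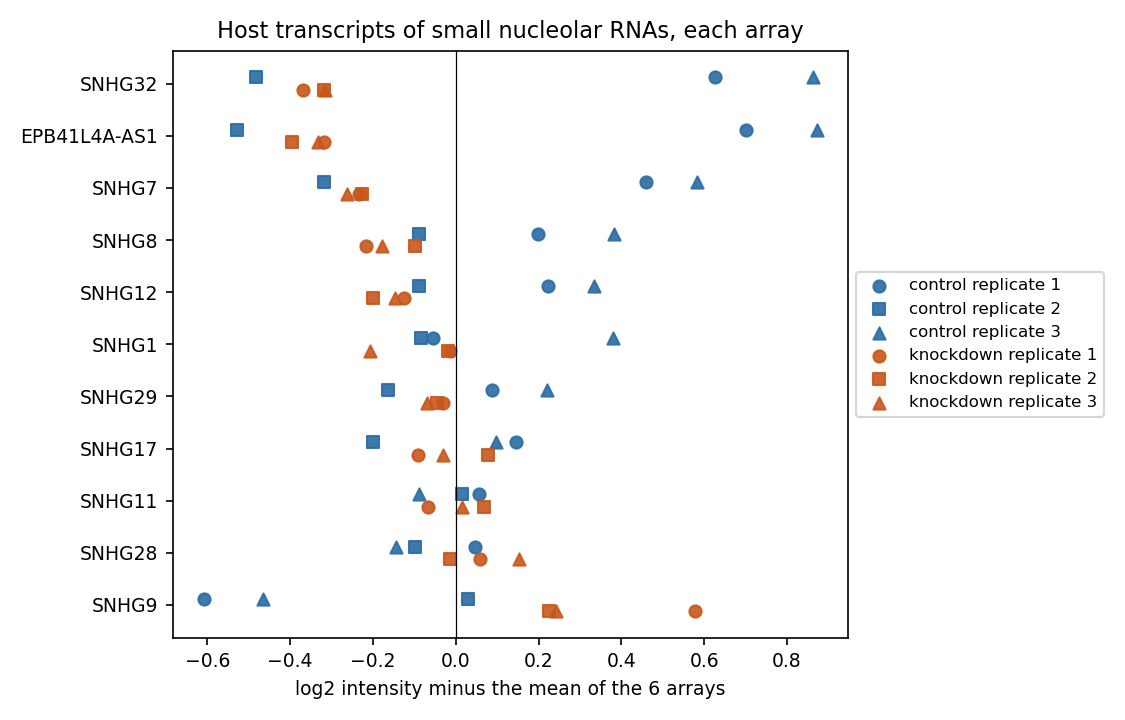
Log2 intensity of each array minus the mean of all 6 (horizontal axis) for the 10 SNHG genes and EPB41L4A-AS1; blue marks are control and orange marks knockdown arrays, with circle, square and triangle for replicates 1, 2 and 3. In the top 5 rows, controls 1 and 3 lie to the right and the blue square of control 2 lies close to the knockdown arrays; SNHG9 in the last row runs the other way.

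The annotated starts of these hosts are shown for the letters at which their transcripts may begin. Many snoRNA host transcripts begin with a C followed by a run of pyrimidines, the terminal oligopyrimidine sequence also carried by ribosomal protein messages. RefSeq (GRCh38.p14) promoter entries were matched for 192 of the 261 members; UCA1 and SNHG9 are named only. The windows hold 30 bases before and 30 bases after the annotated start, read 5′ to 3′ on the strand of the gene, and capitals mark the run of C or T that opens the transcript with a C. SNHG12 (chr1:28581844-28581903, minus strand), SNHG32 (chr6:31834886-31834945, plus strand), SNHG7 (chr9:136728155-136728214, minus strand) and SNHG8 (chr4:118278732-118278791, plus strand) are hosts that followed the split, as is EPB41L4A-AS1 (chr5:112160496-112160555, plus strand). SNHG1 (chr11:62855856-62855915, minus strand) and SNHG29 (chr17:16438957-16439016, plus strand) are bright hosts whose log2 fold changes stood nearer 0. SNHG29 nevertheless had the order of SNHG32, with controls 1 and 3 high and control 2 below all 3 knockdown arrays.
SNHG12: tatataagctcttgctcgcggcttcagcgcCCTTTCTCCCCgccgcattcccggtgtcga
SNHG32: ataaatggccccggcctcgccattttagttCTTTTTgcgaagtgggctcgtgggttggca
SNHG7: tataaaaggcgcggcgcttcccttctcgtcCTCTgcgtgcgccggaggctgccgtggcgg
SNHG8: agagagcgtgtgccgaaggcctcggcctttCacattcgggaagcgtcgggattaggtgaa
EPB41L4A-AS1: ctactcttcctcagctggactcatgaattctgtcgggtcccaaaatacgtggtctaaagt
SNHG1: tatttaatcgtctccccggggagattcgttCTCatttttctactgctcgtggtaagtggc
SNHG29: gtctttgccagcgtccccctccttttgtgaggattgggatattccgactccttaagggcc
The run was 11 letters in SNHG12, 6 in SNHG32, 4 in SNHG7, 3 in SNHG1 and 1 in SNHG8, and EPB41L4A-AS1, SNHG29, SNHG11, SNHG17 and SNHG28 did not open with a C, a run of 0. Hosts that followed the split thus had runs from 0 to 11. A run of at least 5 letters opened 2 of the 9 SNHG entries, 3.6% of the 222 entries of all members and 4.07% of all 35116 promoter entries. An annotated start can lie some bases away from the start used in these cells, so a short run says only what these letters are.

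The other SNHG genes gave smaller differences. SNHG29, the member with the highest intensity, measured 2185, 1835 and 2393 in control and 2011, 1992 and 1960 in knockdown cells (-0.10 ± 0.11). SNHG1 measured 71.4, 69.9 and 96.4 in control and 73.4, 73.1 and 64.2 in knockdown cells (-0.16 ± 0.13). The groups of both overlapped. In SNHG29 control replicate 2 lay below the knockdown arrays and the other controls above them, the order seen in SNHG32 and SNHG7. SNHG11, SNHG17 and SNHG28 stood at 0.01, -0.03 and 0.13, the latter pair near the floor of the array. Of 11 measured factors of nonsense-mediated decay, which degrades many spliced host transcripts, 0 were called by limma (2 higher and 1 lower at an unadjusted p under 0.05), with a median of 0.03 against 0.011 over all genes; the shares of all genes were 7.83% called, 12.4% higher and 11.1% lower. All 11 lay above the median gene, where those shares were 13.5%, 19.8% and 17.6%. SMG8, a regulator of the decay kinase SMG1, had the smallest p, at 54.5, 62.0 and 49.4 in control and 71.2, 68.0 and 70.1 in knockdown cells (0.34 ± 0.10, limma adjusted p = 0.0767).

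Of the 151 LINC genes, 1 rose and 1 fell (1.32%, against 7.83% of all genes), with a class median of 0.01. All but 9 of the class lay at or below the median gene, where 2.16% of all genes were called. LINC02910 fell the most of all members. It measured 21.4, 10.3 and 24.2 in control and 4.90, 5.75 and 5.01 in knockdown cells. The groups did not overlap, and control 2 lay between the other controls and the knockdown arrays. The decrease was 3.36-fold (log2 -1.75 ± 0.28 SE, limma adjusted p = 0.0103), and -0.99 against control 2 alone. The call was lost without knockdown replicate 1 (-1.71, adjusted p = 0.0638) or knockdown replicate 3 (-1.72, adjusted p = 0.0567), and the 6 fits without 1 array ranged from -2.13 to -1.52. The knockdown level lay below the median gene, where RMA compresses folds.

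LINC02910 was read by 3 probe sets, all with a negative log2 fold change. The brightest one, ending in _s_at, gave the value above. Another measured 4.40, 4.08 and 5.24 in control and 3.23, 2.999 and 3.13 in knockdown cells (-0.54 ± 0.11, called in the test per probe set with a limma adjusted p of 0.0299). The remaining one measured 6.41, 3.76 and 8.31 in control and 3.08, 3.24 and 3.6 in knockdown cells (-0.83 ± 0.25, adjusted p = 0.101). With probe sets ending in _x_at or _s_at left out, that last one stood for the gene and the call was lost (limma adjusted p = 0.0847). Of its 6 nearest measured neighbours 0 were called by limma, beside 7.83% of all genes. At an unadjusted p under 0.05, 2 were higher and 0 lower, beside 12.4% and 11.1% of all genes. PSMA7, a proteasome subunit gene, had the largest difference (0.25 ± 0.10).

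The promoter of LINC02910 is shown because it belongs to the member with the largest fall and matches 1 of the motifs searched. It spans chr20:60055675-60055974 on the plus strand (RefSeq, GRCh38.p14), 250 bases before to 50 bases after the start. Capitals mark GGAATG, the core letters bound by TEAD factors, on either strand.
LINC02910: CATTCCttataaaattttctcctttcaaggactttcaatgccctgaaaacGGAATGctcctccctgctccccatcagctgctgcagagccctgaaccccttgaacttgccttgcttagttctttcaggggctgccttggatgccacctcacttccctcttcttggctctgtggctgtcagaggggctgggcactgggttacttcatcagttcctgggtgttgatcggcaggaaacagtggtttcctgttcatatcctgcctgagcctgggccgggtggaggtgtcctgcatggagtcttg
The matches begin 250 and 200 bases before the start. GGAATG was found on either strand in 14.03% of all promoter entries and in 16.2% of those of the members. The letters TGANTCA (AP-1), TGACGTCA (cyclic AMP response element), TGATGNAA (C/EBP-ATF), CACGTG (E-box) and CCGGAAG (ETS) were searched on both strands too and were not in this window, nor was any of the 6 in the windows of ZNF436-AS1. They occur in 7.71%, 1.85%, 3.62%, 7.26% and 10.3% of all entries. The motifs were chosen after the values were seen, and a match describes letters, not binding.

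LINC01098, the LINC gene that rose, lay near the floor. It measured 2.10, 2.22 and 1.93 in control and 2.84, 2.54 and 3.03 in knockdown cells (0.43 ± 0.10, limma adjusted p = 0.0371). The groups did not overlap, and every value was below the median gene. These values came from a probe set ending in _x_at. The other probe set of LINC01098 gave 0.17 ± 0.10, not called. The call held without control 2 and was lost without any other single array, with log2 fold changes of 0.37 to 0.50. Among its nearest measured neighbours VEGFC, a lymphatic growth factor, rose (0.49 ± 0.09, limma adjusted p = 0.0205), and the other 5 were not called. Over the 30 nearest neighbours of the 5 called members, 2 rose and 0 fell, beside 3.7% and 4.13% of all genes; they were VEGFC and E2F2, a cell cycle transcription factor near ZNF436-AS1.

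The brighter LINC genes that were not called had log2 fold changes from -0.42 to 0.26. LINC01547, the brightest, measured 43.5, 42.5 and 35.7 in control and 43.2, 41.3 and 41.8 in knockdown cells (0.06 ± 0.10). LINC00205 measured 17.3, 15.5 and 13.9 in control and 18.1, 18.5 and 18.98 in knockdown cells (0.26 ± 0.10, limma adjusted p = 0.16), with all knockdown values above the controls. LINC00526, at 16.9, 13.9 and 17.9 in control and 12.9, 14.3 and 13.7 in knockdown cells (-0.24 ± 0.11), had control 2 within the knockdown range. LINC00847, LINC01000, LINC03040, LINC01296 and LINC03009 stood between -0.42 and 0.12. Without control replicate 2, LINC00526 (-0.35) and LINC03009 (-0.43) were called lower, in a fit that called 20.6% of all genes. These genes were named for their brightness after their values were seen.

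Of the 98 antisense genes, 0 rose by limma (3 at an unadjusted p under 0.05) and 1 fell, 1.02% called against 7.83% of all genes. All but 11 of the class lay at or below the median gene, where 2.16% of all genes were called. ZNF436-AS1, transcribed opposite the zinc finger gene ZNF436, fell with little spread. Its brightest probe set measured 18.7, 19.5 and 19.8 in control and 11.5, 10.4 and 10.6 in knockdown cells. The groups were well apart, and control 2 lay with the other controls. The mean fell from 19.3 ± 0.57 to 10.8 ± 0.57 (SD, n = 3 each), to 55.9% of control (log2 -0.84 ± 0.08 SE, limma adjusted p = 0.00121). The call held in all 6 fits without 1 array (-0.88 to -0.81). The fall was seen at this probe set only, whose ID ends in _s_at. The other probe set of ZNF436-AS1 measured 12.5, 14.9 and 14.9 in control and 14.3, 13.97 and 13.5 in knockdown cells (-0.01 ± 0.10), with overlapping groups, so the gene was not called with probe sets ending in _x_at or _s_at left out.

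ARRDC1-AS1 measured 24.9, 27.0 and 27.8 in control and 21.4, 22.5 and 21.4 in knockdown cells (-0.29 ± 0.08, limma adjusted p = 0.0731); its groups did not overlap, and control 2 lay with the other controls. SLCO4A1-AS1 measured 185, 119 and 210 in control and 116, 129 and 145 in knockdown cells (-0.37 ± 0.20), again with control 2 among the knockdown arrays. Both were named after their values were seen.

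The antisense transcripts were set beside the genes they are named for. Of 94 pairs with both sides measured, the sense gene was called in 15 (5 higher and 10 lower, 15.96% against 7.83% of all genes). The antisense transcript was called in 1, both in 0 by limma (2 pairs with both at an unadjusted p under 0.05) and neither in 78. With 1 antisense transcript called, at most 1 pair could be called on both sides, so the 0 cannot tell whether the pairs change together. ZNF436, the sense gene of ZNF436-AS1, stood at 0.17 ± 0.11 (limma adjusted p = 0.417), with a mean of 3.97. Among the sense genes, BASP1, a growth cone membrane protein gene, rose most, by 1.75 ± 0.29, while BASP1-AS1 stood at 0.07 ± 0.08. PCOLCE, an enhancer of procollagen processing, stood at -0.77 ± 0.10 and was called lower, while PCOLCE-AS1 stood at 0.18 ± 0.10. Where the sense gene was called, the antisense values lay between -0.11 and 0.22, but in 14 of these 15 pairs the antisense transcript was below the median gene. KRT10-AS1 was the only bright one, at 0.13 ± 0.13 beside 0.43 ± 0.10 for the keratin gene KRT10. The pairs named here were chosen after their values were seen.

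**Figure D4:**
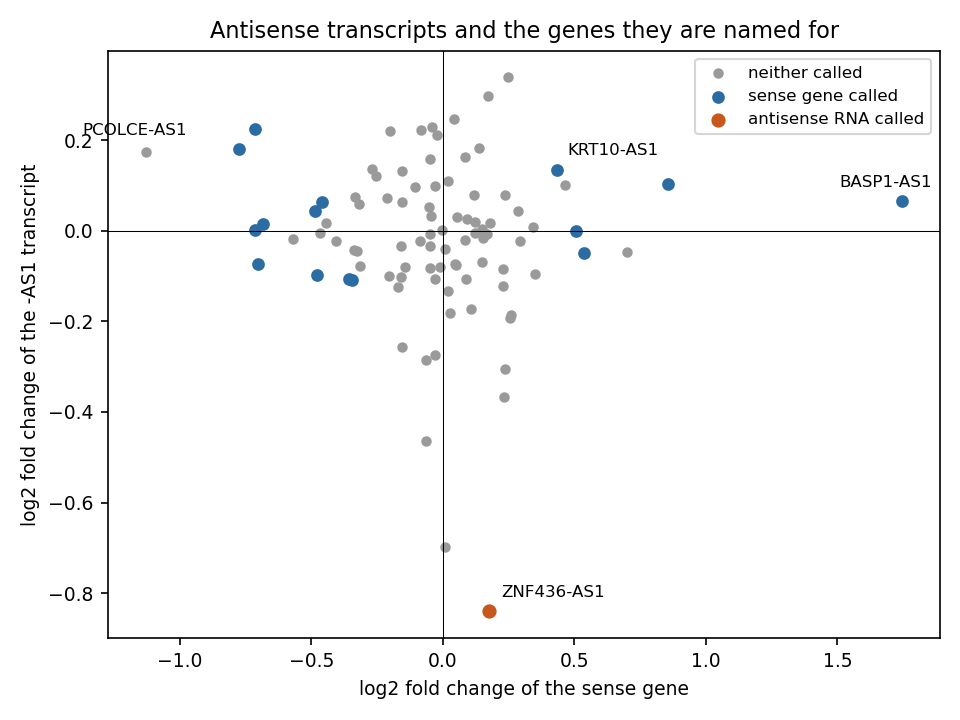
Log2 fold change (knockdown minus control) of the sense gene on the horizontal axis and of its -AS1 transcript on the vertical axis, for 94 pairs; blue points have a called sense gene and the orange point a called antisense transcript. The called sense genes spread along the horizontal axis with antisense values between -0.11 and 0.22. No point is called on both sides, where with 1 called antisense transcript at most 1 could be.

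Further long non-coding RNAs outside the symbol rule gave 3 calls. Of 60 listed, 16 were measured: 2 rose, 1 fell and 13 were not called, against 7.83% of all genes, with a median of 0.02. DLEU2, which hosts a microRNA cluster lost in chronic lymphocytic leukaemia, measured 43.6, 86.8 and 46.0 in control and 126, 119 and 130 in knockdown cells (1.16 ± 0.23, limma adjusted p = 0.0247). MIR22HG, the host of miR-22, measured 33.1, 30.1 and 35.6 in control and 47.5, 42.5 and 43.8 in knockdown cells (0.44 ± 0.09, limma adjusted p = 0.0295). CRNDE, first described in colorectal cancer, measured 228, 157 and 235 in control and 100.5, 104 and 115 in knockdown cells (-0.94 ± 0.15, limma adjusted p = 0.0114). The groups did not overlap in any of these, and in DLEU2 and CRNDE control 2 lay between the others and the knockdown arrays.

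DLEU2 kept its call only without control 2 among the fits without 1 array (0.98 to 1.48). MIR22HG kept it without control 2 or 3 (0.38 to 0.50). CRNDE kept it without any 1 control or without knockdown 3 (-1.12 to -0.83). All 5 probe sets of MIR22HG were on the higher side. The other probe sets of DLEU2, both near the floor, gave 0.01 and 0.12, and all 3 end in _x_at. ZFAS1, another snoRNA host, measured 1780, 1419 and 1740 in control and 1208, 1272 and 1290 in knockdown cells (-0.38 ± 0.10, limma adjusted p = 0.063). Its groups did not overlap, it was named after its values were seen, and it fell without control 2.

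How the members' calls rest on single arrays was read from the fits without 1 array. Without control replicate 2, 4 members rose and 15 fell (7.28%, against 20.6% of all genes, 10.5% higher and 10.1% lower), and all 5 members called with 6 arrays were among them. The 15 that fell were 4 SNHG, 5 LINC and 6 antisense genes. Without control 1, control 3 or knockdown 2, 3 of the 5 kept their call, and without knockdown 1 or 3, 2 did; UCA1 and ZNF436-AS1 were called in all 6. Of all genes, 2.88% were called when control 1 was dropped and 3.12% when control 3 was; dropping knockdown 1, 2 or 3 gave 1.79%, 2.05% or 2.16%. Control 2 was nearer on the log2 scale to the knockdown mean than to the mean of controls 1 and 3 in 9 of 10 SNHG genes, 60.3% of LINC genes and 52.0% of antisense genes, against 54.7% of all genes.

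**Figure D5:**
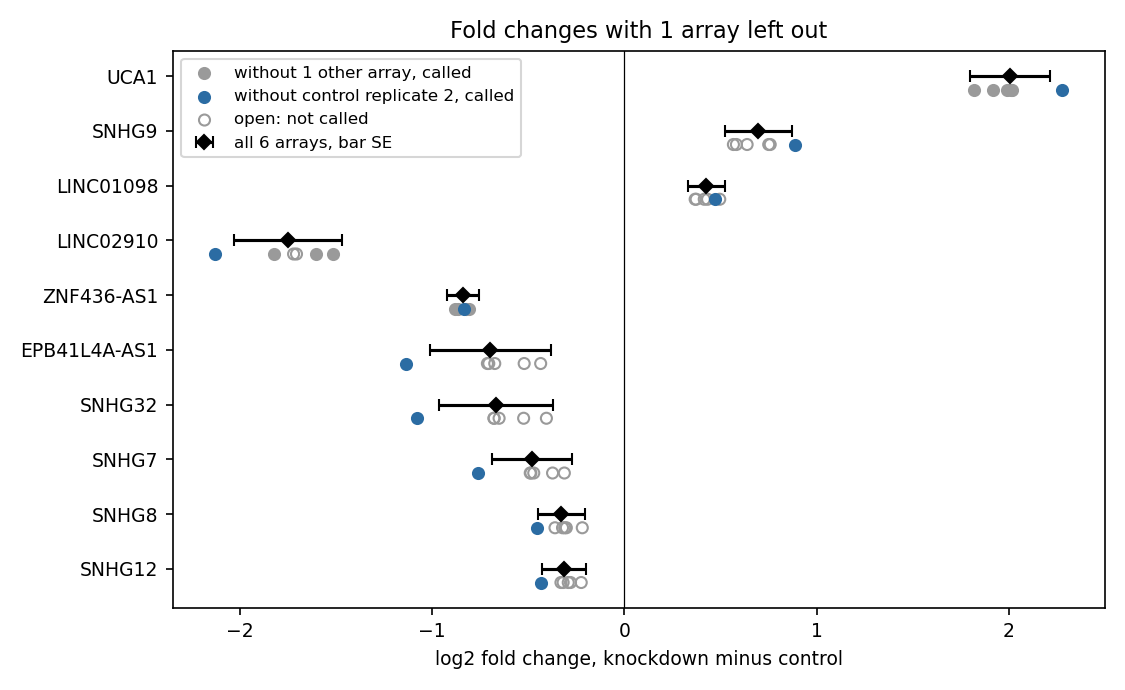
Log2 fold change (knockdown minus control, horizontal axis) of the 5 called members and 5 snoRNA hosts; black diamonds are the fit on 6 arrays with bars of 1 SE, and circles below them are the fits without 1 array, filled where called and blue without control replicate 2. UCA1 and ZNF436-AS1 are filled throughout, while the 5 hosts are filled only in blue.

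Probe sets of 1 gene did not always run the same way. Of the 75 members with more than 1 probe set, 44 had the same sign at all of them and 31 had mixed signs. Most of them, 60 of the 75, lay at or below the median gene, where small differences can take either sign. The share of mixed signs over all genes was not counted. In the test per probe set, 1 of 367 member probe sets was called higher and 3 lower, against 1.98% and 2.5% of all probe sets. These were the probe set of UCA1, 2 of LINC02910 and 1 of ZNF436-AS1.

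The members' counts under other ways of processing are given beside the share of all genes called. Array weights called 16 members, 5 higher and 11 lower, beside 17.1% of all genes (8.64% higher and 8.47% lower), and among them were all 5 members called without weights. With probe sets ending in _x_at or _s_at left out, UCA1 was the only 1 of 236 members called, beside 6.48% (3.05% higher and 3.43% lower). An intensity trend called 6 members beside 8.76% of genes, repeated quantile normalization 5 beside 8.01%, the averaging of each gene's probe sets 5 beside 6.34%, and leaving out the lowest 50% of genes 5 of 30 beside 18.0%.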

How the data were processed

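Per the labels' protocols, Trizol was used to isolate total RNA, from which biotinylated cRNA was made for Affymetrix arrays. The deposited values are probe set intensities; the submitters' processing notes name RMA, with its version not given. The authors' table is on a linear scale, read from its range of 1.55 to 6658. RMA normalizes quantiles across arrays and compresses folds of dim probe sets. Array medians lay between 4.85 and 4.94. No detection calls or counts enter the values, so the number of arrays, 3 per group, limits the precision.

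Log2 of the deposited intensity was taken without a pseudocount. Of 49293 probe sets, 44988 had 1 symbol, 1832 several and 2473 none; RefSeq changed 0 symbols. Knockdown was compared with control by limma 3.58.1 in R 4.3.3 (moderated linear model, prior variance without trend) on 18132 genes, without a filter on dim genes; the same fit was run on all probe sets. The steps were tested on simulated data. Python 3.11.15, pandas 2.3.3 and matplotlib 3.10.9 served for the rest.

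The members and lists were chosen with earlier results of these data known. Named were UCA1 and MALAT1 (with H19, MEG3, GAS5 and NEAT1, had they been measured), up to 6 called rises and 6 called falls per class, and in each comparison list up to 2 called rises and 2 falls or the member with the smallest p; other names are said to be chosen after their values were seen. The alternatives tried were array weights, an intensity trend in eBayes, a block on replicate number, repeated quantile normalization, no genes in the lowest 50% by mean, no _x_at or _s_at probe sets, averaging each gene's probe sets, and each array left out in turn.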

Additional observations from a re-analysis of the deposited data

How the results depend on the processing

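Against 3 members called higher and 2 lower, the replicate number as a block gave 1 and 3, with 6.55% of all genes called; SNHG9 and LINC01098 lost their call (limma adjusted p = 0.0596 and 0.0707) and ZNF407-AS1 gained one. No pairing by number was seen. Deviations of same-numbered arrays from their group means correlated at -0.08, 0.02 and 0.06, and those of differently numbered arrays at -0.08 to 0.06. With 3 arrays per group, these values cannot tell whether the cultures were paired. Array weights gave 5 higher and 11 lower, with 17.1% of all genes called. Leaving out probe sets ending in _x_at or _s_at gave 1 higher and 0 lower by limma (7 and 11 at an unadjusted p under 0.05), over 236 members. Leaving out 1 array gave 1 to 4 higher and 1 to 15 lower. MALAT1, not called in any setting, ranged from -0.23 to 0.14 with 1 array left out and changed sign without control replicate 1 (0.14) or knockdown replicate 1 (0.10). The intensity trend gave 4 and 2, repeated quantile normalization and averaged probe sets 3 and 2 each, and leaving out the lowest 50% of genes 2 and 3. UCA1 was called in all 13 alternatives. The causes were not tested. Signal near the floor limits what can be seen in the 231 dimmer members.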
